A study of Mus musculus with 10 samples.

Results

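Adipocytes are the fat-storing cells of the body, and the RNA of a whole heart holds some of theirs whenever fat tissue on the surface or around the vessels of the heart is taken with it. This report describes 10 genes known from white and brown fat in the hearts of 10 mice: Adipoq, Cfd, Retn, Lep, Plin1, Cidec, Fabp4, Car3, Pck1 and Ucp1. They were picked by symbol from the 54532 genes of the deposited table, and they had been selected on their values in these same hearts, so their levels and the way they varied together are given as a description, with no test. All 10 symbols matched 1 gene each. Levels are in FPKM, fragments per kilobase of gene length scaled to the depth of the library. The fit across all genes took those averaging 0.5 FPKM or more over the hearts, which held for 12602 genes and for 7 of the 10 members. Plin1, Lep and Ucp1 did not.

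The samples were 5 hearts of the vehicle control group and 5 hearts of the MEKi group, which received the MEK1/MEK2 inhibitor trametinib at 1 mg/kg by daily dosing for 20 weeks from 4 weeks of age. Every mouse of both groups carried Rit1 M90I/+, a gain-of-function allele of the small GTPase Rit1 that models Noonan syndrome, present in the germline after a conditional allele was recombined by a cytomegalovirus-Cre deleter, and no group without the allele was among the samples. The comparison asks how MEK inhibition altered the transcriptome of the mutant heart. The libraries were made from polyadenylated RNA of heart tissue, and neither the part of the heart that was taken nor the removal of surface fat is stated in the sources used here. Fragments recovered from the FPKM totalled from 13647167 to 18474002 per heart, and the 8 cardiomyocyte markers examined summed to between 17965 and 25795 FPKM in every heart. Xist, transcribed from the inactive X chromosome, measured from 5.16 to 6.85 FPKM in the MEKi hearts and at most 0.00662 FPKM in the vehicle hearts, while the Y-linked gene Ddx3y measured from 10.3 to 12.2 FPKM in the vehicle hearts and 0 in the MEKi hearts. Treatment and the division by X- and Y-linked transcripts therefore cannot be told apart in any comparison of the groups below.

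White adipocytes keep triglyceride in a single large droplet coated by perilipin and CIDE proteins, release fatty acids from it on demand, and secrete hormones and other proteins known as adipokines. Brown adipocytes hold many small droplets and many mitochondria, whose uncoupling protein turns the proton gradient into heat. In the mouse heart, fat lies mainly along the atrioventricular groove and around the great vessels, and some of the proteins made by adipocytes are also made by other cells of the heart, above all Fabp4 by the endothelium of capillaries. In bulk tissue, a lower level of such a gene can come from fewer adipocytes or from less of its RNA in each, and these cannot be told apart.

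The sequences upstream of 4 members are shown, those of Cfd and Adipoq, the closest pair across the hearts, and those of Pck1 and Ucp1. Pck1 followed Adipoq less closely (Pearson r = 0.76 over the 10 hearts), and Ucp1 was found in 2 hearts. Fabp4 and Lep, with r = 0.27 and r = 0.47 to Adipoq, departed more than Pck1 and are not shown. The sequences come from the promoter table of RefSeq on GRCm38.p6, which held 8 of the 10 members. Fabp4 and Car3 were not in it, and Cidec had a window at each of 2 starts. Each is written 5′ to 3′ on the plus strand and ends at the base before the RefSeq start, except that of Pck1, which stops at base 26 before it because the gene begins there in the deposited table. The windows lie at chr10:79890603-79890852, chr16:23146286-23146535, chr2:173152823-173153047 and chr8:83290098-83290347. Capitals mark the matches, on either strand, of 5 short motifs. The letters searched were TATAAA for the promoter element of that name, CCAAT for the box bound by nuclear factor Y, CGTCA for the core of a cAMP response element, TTGCGCAA for a palindrome bound by C/EBP factors, and AGGTCA for a nuclear receptor half-site.
Cfd: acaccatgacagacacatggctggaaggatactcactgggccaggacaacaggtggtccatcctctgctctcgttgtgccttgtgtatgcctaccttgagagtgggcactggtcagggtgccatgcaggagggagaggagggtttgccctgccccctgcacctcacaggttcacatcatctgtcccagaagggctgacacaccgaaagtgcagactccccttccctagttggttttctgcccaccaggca
Adipoq: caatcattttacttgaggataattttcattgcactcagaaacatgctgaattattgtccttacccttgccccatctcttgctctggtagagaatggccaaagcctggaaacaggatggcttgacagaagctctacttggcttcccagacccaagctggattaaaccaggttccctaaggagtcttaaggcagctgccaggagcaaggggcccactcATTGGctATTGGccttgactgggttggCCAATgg
Pck1: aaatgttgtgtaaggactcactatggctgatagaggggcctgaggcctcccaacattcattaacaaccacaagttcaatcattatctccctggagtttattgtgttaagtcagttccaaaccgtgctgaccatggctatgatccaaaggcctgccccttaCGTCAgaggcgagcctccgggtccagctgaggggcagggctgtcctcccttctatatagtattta
Ucp1: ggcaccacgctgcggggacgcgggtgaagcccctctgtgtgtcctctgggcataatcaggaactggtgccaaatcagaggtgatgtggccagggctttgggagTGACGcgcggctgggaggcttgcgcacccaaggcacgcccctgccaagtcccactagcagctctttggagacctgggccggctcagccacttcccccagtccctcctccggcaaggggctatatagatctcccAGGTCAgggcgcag

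In the 250 bases before the RefSeq start, CGTCA was found in Pck1, from base 90 to base 86 before the start, and in Ucp1, from base 147 to base 143 on the reverse strand. The other 6 members of the table did not have these letters, and 17.8% of the 32851 promoter windows of the table did. CCAAT occurred 3 times in Adipoq, all within the last 34 bases, against 33.8% of all windows with at least 1 match. AGGTCA was found in Ucp1 (14.0% of all windows) and TTGCGCAA in Lep (0.164% of all windows), while TATAAA (12.4% of all windows) was in none of the 8 members. No matches of different motifs overlapped in the windows shown. The window of Cfd held none of the 5 motifs, although the expression of Cfd and Adipoq over the hearts had the highest r of all pairs of members. A match describes the letters of the window and says nothing of a factor's binding.

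Among the secreted products, Cfd, Adipoq and Retn shared a pattern over the hearts, while Lep was close to the limit of detection. Cfd (ENSMUSG00000061780, chr10:79890853-79892655) encodes adipsin, the complement factor D that adipocytes secrete, and varied over a wide range. Gene positions here and below are on mm10 (GRCm38), as in the deposited table. It measured 25.4, 15.1, 0.229, 83.0 and 0.373 FPKM in vehicle hearts 1 to 5. In MEKi hearts 1 to 5 it measured 7.34, 81.0, 5.17, 4.49 and 12.1 FPKM. Vehicle heart 4 and MEKi heart 2 stood far above the rest, vehicle hearts 3 and 5 were nearly empty of the transcript, and the MEKi hearts lay inside the range of the vehicle hearts. Only 3 fragments lay behind the lowest value and 1065 behind the highest, a 363-fold ratio whose 95% counting interval (exact Poisson on the lower count) ran from 124 to 1758. Such intervals and floors cover counting error only.

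Adipoq (ENSMUSG00000022878, chr16:23146536-23158028) encodes adiponectin, a hormone made almost exclusively by adipocytes. Its levels were 2.37, 1.86, 0, 7.33 and 0 FPKM in vehicle hearts 1 to 5 and 1.01, 6.84, 1.13, 0.405 and 1.66 FPKM in MEKi hearts 1 to 5. The same 2 hearts were highest and the same 2 vehicle hearts lowest as for Cfd. No fragment of Adipoq was found in vehicle heart 3 or vehicle heart 5, where a count of 0 (3 fragments taken as its upper limit) allows up to 0.153 and 0.149 FPKM, so vehicle heart 4 was at least 48.0-fold above vehicle heart 3. The total depth of those hearts, 15371692 and 14591135 fragments, was within the range of the others. Mitochondrial transcripts made up 35.0% and 31.1% of their fragments, above every other heart. The others ran from 24.0% in MEKi heart 2 to 30.3% in vehicle heart 4, and the part of this share was not tested.

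Retn (ENSMUSG00000012705, chr8:3655770-3660110), which encodes resistin, an adipokine of white fat in mice, followed a similar order at a lower level. In vehicle hearts 1 to 5 it measured 0.640, 0.527, 0, 3.91 and 0 FPKM. MEKi hearts 1 to 5 had 0.296, 5.35, 0.474, 0.319 and 0.363 FPKM. MEKi heart 2 was the highest heart, at least 40.0-fold above vehicle heart 3, vehicle heart 4 came next, and the 6 other hearts with fragments lay between 0.296 and 0.640 FPKM. Lep (ENSMUSG00000059201, chr6:29060220-29073877), the gene of the satiety hormone leptin, was close to the limit of detection. It was found in 4 hearts, with 0.278 FPKM in vehicle heart 4, 0.226 FPKM in MEKi heart 2, 0.0834 FPKM in MEKi heart 4 and 0.0419 FPKM in vehicle heart 3, which rested on 13, 13, 5 and 2 fragments. The other 6 hearts had none.

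**Figure D1:**
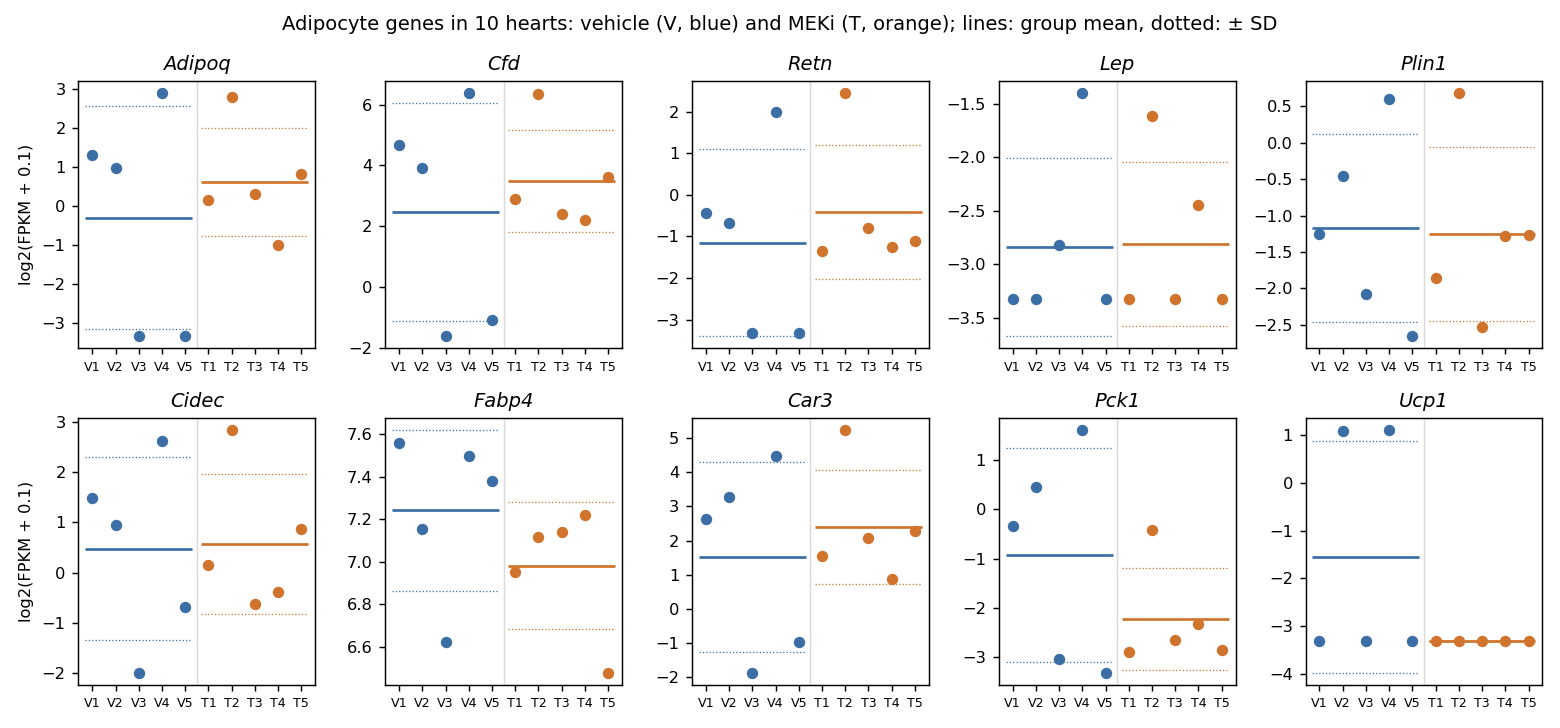
Level of each of the 10 adipocyte genes in each heart, as log2(FPKM + 0.1) on the vertical axis, with vehicle hearts V1 to V5 in blue and MEKi hearts T1 to T5 in orange (solid line, group mean on this scale, and dotted lines, ± SD). Cfd, Adipoq, Retn, Cidec, Car3 and Plin1 peak in V4 and T2, Fabp4 spans only 2.12-fold, and Ucp1 leaves the lowest value in V2 and V4 alone.

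Of the members, the lipid droplet genes Cidec and Plin1 shared the pattern, with 1 exception among the lipid-binding proteins. Droplet genes that are not members, given further below, followed it less closely. Cidec (ENSMUSG00000030278, chr6:113424634-113435760), whose product fuses droplets into the large droplet of white fat, measured 2.69, 1.83, 0.152, 6.08 and 0.518 FPKM in vehicle hearts 1 to 5. The MEKi hearts measured 1.01, 7.06, 0.550, 0.663 and 1.71 FPKM in the same order. Its highest heart, MEKi heart 2, was 46.6-fold above its lowest, vehicle heart 3, and the groups overlapped over nearly their whole range. Plin1 (ENSMUSG00000030546, chr7:79720218-79732903), the perilipin that guards the adipocyte droplet against lipases, was lower, at 0.320, 0.627, 0.136, 1.42 and 0.0591 FPKM in vehicle hearts 1 to 5. Its levels in MEKi hearts 1 to 5 were 0.176, 1.504, 0.0732, 0.313 and 0.315 FPKM. The peak was again in vehicle heart 4 and MEKi heart 2, but here MEKi heart 3 was among the lowest and the span was 25.4-fold. Plin1 fragments were divided by a length of 4649 bases, while its longest transcript in GENCODE M21 has 2817, which lowers its FPKM in every heart.

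Fabp4 (ENSMUSG00000062515, chr3:10204088-10208576), a fatty acid binding protein of adipocytes and of capillary endothelium, was the exception. It measured 188, 142, 98.5, 181 and 166 FPKM in vehicle hearts 1 to 5. In MEKi hearts 1 to 5 its levels were 124, 139, 141, 149 and 89.1 FPKM. It was abundant in every heart, including the 2 hearts without a fragment of Adipoq, and its highest heart was 2.12-fold above its lowest. The table divides its fragments by a length of 4489 bases, which is the whole span of the gene, whereas its spliced messenger (Fabp4-201 of GENCODE M21) has 896 bases, so that per base of the spliced messenger its level is 5.01-fold higher than the FPKM printed here. The same length enters every heart, so ratios between hearts are not affected.

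The enzymes divided. Car3 (ENSMUSG00000027559, chr3:14863512-14872523), a carbonic anhydrase abundant in adipocytes and in slow skeletal muscle, measured 6.10, 9.66, 0.172, 22.4 and 0.408 FPKM in vehicle hearts 1 to 5. MEKi hearts 1 to 5 had 2.81, 37.9, 4.09, 1.72 and 4.78 FPKM. Its 2 highest hearts and its 2 lowest were those of Cfd, with a 221-fold span between MEKi heart 2 and vehicle heart 3. Among markers of skeletal muscle, the genes of fast skeletal myosin were at 0 in all hearts (Myh2 and Myh4) or at no more than 0.0218 FPKM (Myh1). Other genes of that list were detected at a low level, with up to 1.83 FPKM of Pvalb, 1.68 FPKM of Tnni2, 1.18 FPKM of Mylpf, 0.651 FPKM of Tnnt3 and 0.264 FPKM of Actn3. None of these 5 was highest in MEKi heart 2, where Car3 peaked. Only Pvalb was highest there among the MEKi hearts, with 0.952 FPKM against at most 0.336 FPKM in the others. Acta1 and Ckm, which heart muscle also makes, were abundant. The list holds no marker particular to slow skeletal muscle, and the part of skeletal muscle in the level of Car3 was not tested.

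Pck1 (ENSMUSG00000027513, chr2:173153048-173159273) encodes the cytosolic phosphoenolpyruvate carboxykinase, the enzyme of gluconeogenesis in liver and of glycerol synthesis for triglyceride in fat. Its levels were 0.693, 1.27, 0.0205, 2.97 and 0 FPKM in vehicle hearts 1 to 5. MEKi hearts 1 to 5 measured 0.0340, 0.646, 0.0596, 0.0978 and 0.0371 FPKM, which rested on 2, 38, 3, 6 and 2 fragments. Vehicle heart 4 was highest, as for Cfd and Adipoq, but MEKi heart 2, which had nearly its level of Cfd and Adipoq, had less Pck1 than vehicle hearts 1 and 2. The groups still overlapped, because vehicle hearts 3 and 5 were below every MEKi heart.

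Ucp1 (ENSMUSG00000031710, chr8:83290352-83298452), the uncoupling protein that defines brown fat, was found in 2 hearts. Vehicle heart 2 had 2.04 FPKM (48 fragments) and vehicle heart 4 had 2.06 FPKM (47 fragments). The remaining 3 vehicle hearts and all 5 MEKi hearts had no fragment. MEKi heart 2, with a level of Adipoq close to that of vehicle heart 4, was among them, and a count of 0 there allows up to 0.107 FPKM of Ucp1. No gene of the table overlapped the position of any of the 10 members, and all 10 positions matched GENCODE M21.

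Across the 10 hearts the members formed a tight group and a looser surround. Correlations were taken on log2(FPKM + 0.1), with both genes of a pair read from the same libraries, and n is 10 hearts unless another number is given. The 10 pairs among Cfd, Adipoq, Cidec, Retn and Car3 had Pearson r from 0.92 to 0.99 (median 0.94) and Spearman rho from 0.91 to 0.98 (median 0.96). Cfd and Adipoq were the closest pair, with r = 0.99 and rho = 0.98. Plin1 joined this group with r from 0.80 to 0.88, and Pck1 had r from 0.76 to 0.80 with its 5 genes.

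Lep, Ucp1 and Fabp4 were set apart from them in different ways. For Lep, r with the mean z-score of the members past the filter was 0.58 and rho 0.29, and it turned to -0.38 without vehicle heart 4 and MEKi heart 2, the 2 hearts farthest from the median of that score. Its co-variation thus rests on those hearts. For Ucp1 the closest member was Pck1, with r = 0.79 and rho = 0.70, and r with the other members ran from 0.32 to 0.57. Ucp1 was above 0 in vehicle hearts 2 and 4 alone, so these values rest on those hearts. Fabp4 had r from 0.23 to 0.55 with the other 9 members, and its closest member was again Pck1.

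**Figure D2:**
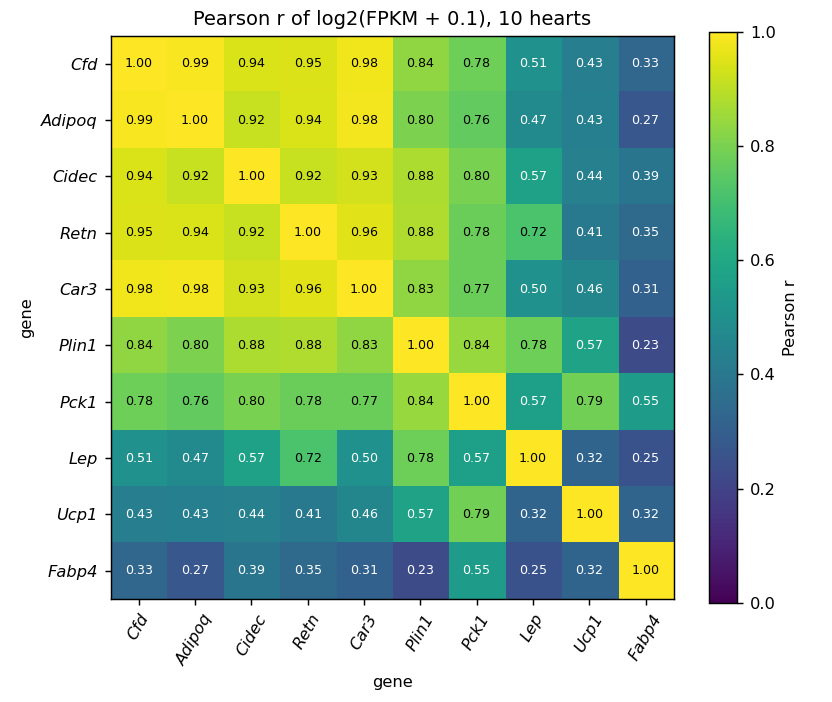
Pearson r of log2(FPKM + 0.1) over the 10 hearts for each pair of the 10 genes, coloured from 0 to 1. Cfd, Adipoq, Cidec, Retn and Car3 form a block with r of at least 0.92, Plin1 and Pck1 border it, and Fabp4 reaches no more than 0.55 with any member.

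The tight group was seen within each treatment group. Among the 5 vehicle hearts its 10 pairs had r from 0.95 to 1.00 (median 0.97), and among the 5 MEKi hearts from 0.89 to 0.99 (median 0.94). Without vehicle heart 4 and MEKi heart 2, the 8 remaining hearts gave r from 0.79 to 0.98 (median 0.96). For Pck1, r with Adipoq was 0.98 within the vehicle hearts and 0.77 within the MEKi hearts, and 0.94 when each heart was taken as its deviation from its group mean, against 0.76 when the groups were pooled. Fabp4 correlated with the other members in the vehicle hearts with a median r of 0.60 over 9 pairs and in the MEKi hearts with a median r of 0.04 over 8 pairs, each from only 5 hearts, and the difference was not tested.

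Expressed relative to Adipoq, the composition of the adipocyte signal could be compared in the 8 hearts with fragments of Adipoq, 3 of the vehicle group and 5 of the MEKi group. The ratio of Cfd FPKM to Adipoq FPKM lay between 4.56 and 11.9, a 2.60-fold range, although Adipoq itself varied from 0.405 to 7.33 FPKM in these hearts. Car3 kept a ratio from 2.58 to 5.55, Cidec from 0.485 to 1.64 and Retn from 0.219 to 0.787. These ratios covered ranges of 2.15-fold, 3.37-fold and 3.60-fold, and for all 4 genes the groups overlapped. The ratio was far less even for Plin1, from 0.0646 to 0.772 (11.96-fold), and for Fabp4, from 20.3 to 368 (18.2-fold), both highest in MEKi heart 4, which had the least Adipoq of these hearts, and here too the groups overlapped.

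For Pck1 the groups did not overlap, with ratios to Adipoq of 0.293, 0.686 and 0.406 in vehicle hearts 1, 2 and 4. The MEKi hearts had 0.0336, 0.0945, 0.0525, 0.242 and 0.0224, all below the lowest vehicle heart, over a 30.6-fold range in all. The gap was narrow at MEKi heart 4, where the ratio rests on 6 fragments of Pck1 and 10 of Adipoq. Of the 12602 genes past the filter, 5 (0.0397%) had a ratio to Adipoq that was lower in every MEKi heart than in every vehicle heart with Adipoq fragments. Pck1 was the only one of the 5 that lies outside the Y chromosome, the others being Ddx3y, Eif2s3y, Uty and Gm29650, the last named after its values were seen. Pck1 passed the filter of 0.5 FPKM through the vehicle hearts, with a mean of 0.992 FPKM there and 0.175 FPKM in the MEKi hearts, so its place in that count is a description and supports nothing. This ratio was looked at after the levels were known, it was not tested, and it leaves out vehicle hearts 3 and 5, where it is undefined.

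**Figure D3:**
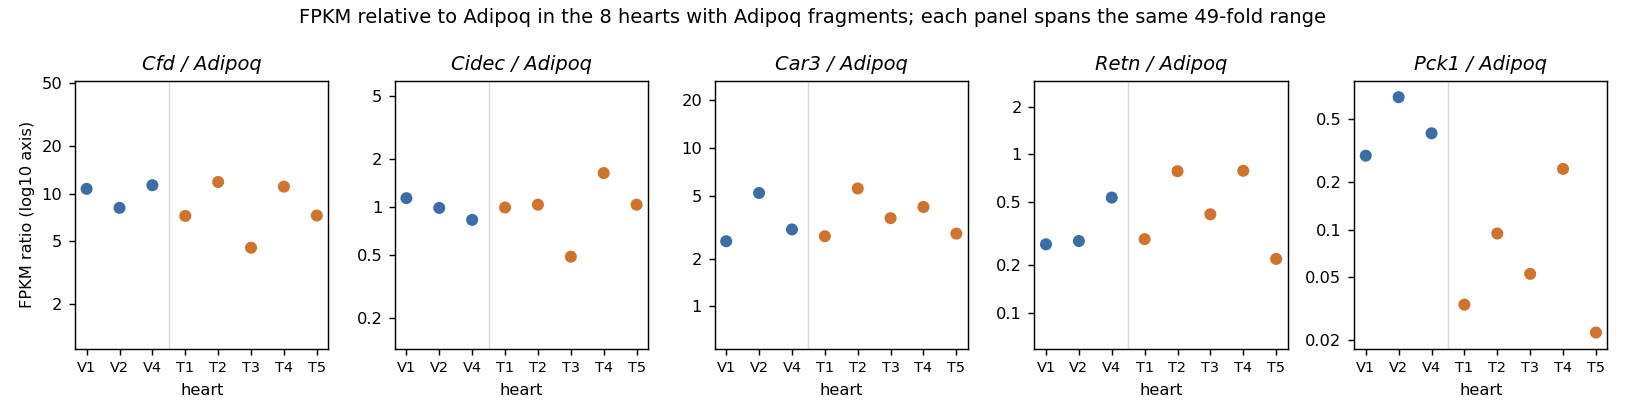
Ratio of the FPKM of Cfd, Cidec, Car3, Retn and Pck1 to the FPKM of Adipoq (log10 axis) in the 8 hearts with Adipoq fragments, vehicle hearts V in blue and MEKi hearts T in orange, with a vertical range of equal fold in each panel. The first 4 ratios overlap between the groups, while that of Pck1 is from 0.293 to 0.686 in the vehicle hearts and from 0.0224 to 0.242 in the MEKi hearts.

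Between the treatment groups, no adipocyte gene passed the test. Group means of FPKM were close for several members. They were 24.8 ± 34.2 in vehicle hearts and 22.0 ± 33.1 in MEKi hearts for Cfd (SD, n = 5 each), 2.31 ± 3.00 and 2.21 ± 2.62 for Adipoq, and 2.25 ± 2.37 and 2.20 ± 2.76 for Cidec. Of the 7 members tested by limma over all genes, 0 had an adjusted p under 0.05 and 0 an unadjusted p under 0.05, where 0.0794% and 7.62% of all genes tested did. The genes behind the 0.0794% include Xist and the Y-linked Ddx3y, Eif2s3y, Uty and Gm29650, so it is no rate of response to trametinib. With voom on the recovered fragments, 0 members passed as well. The FPKM ranges of the groups overlapped for all 10 members, against 1.64% of the genes tested whose ranges did not overlap.

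On the log2(FPKM + 0.1) scale, which understates changes of low genes, 5 of the 7 were higher in the MEKi hearts. Cfd differed by a log2 fold change of 1.03 (SE 1.47), Adipoq by 0.91 (SE 1.18), Car3 by 0.89 (SE 1.20), Retn by 0.74 (SE 1.04) and Cidec by 0.09 (SE 0.85). Each of these is smaller than its standard error. Pck1 and Fabp4 were lower in the MEKi hearts, with log2 fold changes of -1.31 (SE 0.94) and -0.26 (SE 0.19). The adjusted p of limma ran from 0.777 for Pck1 to 0.986 for Cidec. The median log2 fold change of the 7 members was 0.74, against 0.01 for all genes tested, and their median standard error was 1.04 against 0.16, so these genes varied far more between hearts than most, and the test was correspondingly less precise for them.

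The direction rested on a few hearts. Without vehicle hearts 3 and 5, a setting chosen after the data were seen, the 5 positive values turned negative: -1.50 for Cfd, -1.11 for Adipoq, -1.07 for Car3, -0.71 for Retn and -1.12 for Cidec, with a median over the 7 members of -1.11. Leaving out 1 heart at a time, the median was 0.01 without vehicle heart 3, 0.14 without vehicle heart 5, 0.02 without MEKi heart 2 and 1.53 without vehicle heart 4. Under array weights, which give less weight to hearts that depart from the model, it was -0.20. Pck1 and Fabp4 were lower in the MEKi hearts under every setting in which they were fitted, and no member was called under any of the 22 other settings of the fit (lowest adjusted p = 0.397 by limma, for Pck1 without vehicle hearts 3 and 5). Those 2 hearts were the lowest vehicle hearts in Pck1, Cfd, Adipoq, Retn, Cidec and Car3. Leaving them out therefore lowers the values of these genes by construction, and the change of sign shows only that the direction depends on them.

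**Figure D4:**
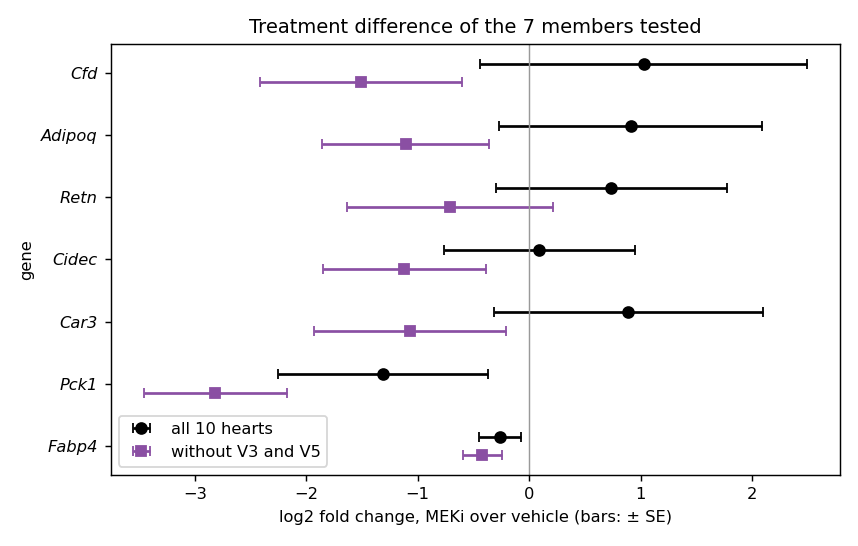
Log2 fold change of MEKi over vehicle hearts (horizontal axis, bars ± SE) for the 7 adipocyte genes tested, with all 10 hearts (black circles) and without vehicle hearts 3 and 5 (purple squares). Cfd, Adipoq, Retn, Cidec and Car3 change sign between the 2 sets of hearts, from positive to negative, while Pck1 and Fabp4 are negative in both. Vehicle hearts 3 and 5 were the lowest vehicle hearts in all of these genes but Fabp4, so leaving them out lowers the values by construction.

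For the 3 members under the filter, exact permutation p-values (two-sided) were taken from the 252 ways to assign the hearts to groups of 5. Hearts that share the value 0 raise the smallest p that these allow, which was 0.00794 for Plin1, 0.0476 for Lep with 6 hearts at 0 and 0.444 for Ucp1 with 8 hearts at 0. The difference in mean log2(FPKM + 0.1), MEKi minus vehicle, was -0.08 for Plin1 (exact permutation p = 0.944) and 0.03 for Lep (exact permutation p = 1), and both changed sign when single hearts were left out. For Ucp1, found in 2 vehicle hearts and 0 MEKi hearts, the difference was -1.77. With so few hearts above 0 its permutation test could not have passed, so the difference is given as a value only. The limma fit of every gene above 0 in any heart gave Ucp1 an unadjusted p of 0.0873, or 0.831 after adjustment.

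Other genes of the adipocyte were read from lists of known roles. They held 63 genes that are not members, of which 49 were tested: 23 were higher and 26 lower in the MEKi hearts, 0 passed the test (lowest adjusted p = 0.507 by limma), 3 had an unadjusted p under 0.05, and the median log2 fold change was -0.04. The 3 were Angptl4, a secreted inhibitor of lipoprotein lipase (log2 fold change -1.14, SE 0.38), Lcn2, lipocalin 2 (-0.72, SE 0.28), and Adora1, an adenosine receptor (-0.34, SE 0.16). These 3 make up 6.12% of the genes tested, against 7.62% of all genes, which is no result about the lists. Neither Angptl4 nor Lcn2 followed the members over the hearts, with r = 0.30 and r = -0.27 against the mean z-score of the tested members without Fabp4 and Car3.

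Several of these genes are also made by other cells of the heart, and their levels varied little between hearts. Cd36, the fatty acid transporter, lay between 245 and 352 FPKM in all hearts, Lpl, lipoprotein lipase, between 397 and 641 FPKM, and Pnpla2, the first lipase of triglyceride breakdown, between 88.2 and 121 FPKM. Of the 9 droplet and lipolysis genes that are not members, all 9 were tested, 2 were higher and 7 lower in the MEKi hearts, and 0 passed the test. Of these 9, 0 had r over 0.7 with the mean z-score of the tested members without Fabp4 and Car3. Plin4 measured from 12.6 to 21.7 FPKM and Cidea, the relative of Cidec, from 17.3 to 38.0 FPKM, against spans of 25.4-fold for Plin1 and 46.6-fold for Cidec. Pparg, the master regulator of adipocyte differentiation, lay between 1.77 and 3.50 FPKM, and Cebpa between 3.10 and 7.28 FPKM, and 0 of the 10 transcription factors listed passed the test, 5 being higher and 5 lower.

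Among the listed genes past the filter, 4 of the 5 with r over 0.7 to the mean z-score of the tested members without Fabp4 and Car3 belonged to lipid synthesis. Among the 15 genes of fatty acid and triglyceride synthesis, 14 were tested, 8 were higher and 6 lower in the MEKi hearts, and 0 passed the test. Fasn, fatty acid synthase, measured 2.45, 3.66, 1.73, 5.88 and 1.38 FPKM in vehicle hearts 1 to 5. MEKi hearts 1 to 5 had 2.25, 9.62, 1.61, 1.95 and 2.45 FPKM. MEKi heart 2 and vehicle heart 4 were highest, as for Cfd, and r with the score was 0.88, or 0.80 without those 2 hearts. Slc25a1, the mitochondrial citrate carrier that supplies carbon for fatty acid synthesis, had r = 0.87 (0.74 without them), and Gpd1, the enzyme of glycerol 3-phosphate, had r = 0.71 (0.46 without them). Scd1, the stearoyl-CoA desaturase, had r = 0.74, which fell to 0.22 without the 2 hearts and so rests on them.

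Of all 49 adipocyte list genes tested, 5 had r over 0.7, the last being Rbp4, retinol binding protein 4, with r = 0.78 (0.49 without the 2 hearts), and the share of all genes past the filter with such an r was 1.76%. Adrb3, the beta-3 adrenergic receptor of adipocytes, was under the filter, with 0.380 FPKM at most, in MEKi heart 2. Slc7a10, an amino acid transporter of white adipocytes, reached 0.524 FPKM in the same heart. The receptors Ffar4 and Hcar2 reached 0.137 and 0.132 FPKM, both in MEKi heart 5.

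For brown fat, 1 other gene of the list was found in the same hearts as Ucp1 and no others, at a trace level. Of the 14 genes that are not members, 7 were tested, 4 were higher and 3 lower in the MEKi hearts, and 0 passed the test. The abundant ones were genes that cardiac muscle uses as well, such as Cox8b (1343 to 2488 FPKM), Cox7a1 (1527 to 2777 FPKM) and Kcnk3 (51.2 to 66.3 FPKM). Slc27a2, a fatty acyl-CoA synthetase and transporter, had 0.0924 FPKM in vehicle heart 2 and 0.0765 FPKM in vehicle heart 4, at most 5 fragments, and none elsewhere. Among the other restricted ones, Lhx8 had no fragment in any heart, while Zic1 reached 0.0609 FPKM and Elovl3 0.186 FPKM, both in vehicle heart 2. Zic1 was also found in vehicle heart 4 (0.0252 FPKM) and in MEKi heart 1 (0.0307 FPKM), which had no Ucp1. Elovl3 was also found in vehicle heart 1 (0.0398 FPKM) and MEKi heart 2 (0.0780 FPKM), both without Ucp1. Otop1 had 0.292 FPKM in vehicle heart 4 and 0.203 FPKM in MEKi heart 2, the latter without Ucp1, and r = 0.87 with the score used for Fasn (0.72 without those 2 hearts), below the filter and on at most 14 fragments.

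Close relatives of the members were then examined. Of 19 paralogues examined, 18 were tested, 6 were higher and 12 lower in the MEKi hearts, and 0 passed the test. Fabp3, the fatty acid binding protein of heart muscle, measured from 2469 to 4525 FPKM, a 1.83-fold range. Pck2, the mitochondrial relative of Pck1, ranged from 1.46 to 2.29 FPKM, and Plin5, the perilipin of oxidative muscle, from 40.3 to 62.4 FPKM. Retnla, a resistin-like protein, lay between 11.7 and 31.1 FPKM and was highest in MEKi heart 3, then MEKi heart 2.

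Markers of other tissues taken with a heart were read beside the members. Summed over Cfd, Adipoq, Retn, Lep, Plin1, Cidec, Car3, Pck1 and Ucp1, the vehicle hearts had 38.2, 32.9, 0.751, 129 and 1.36 FPKM and the MEKi hearts 12.7, 141, 11.5, 8.09 and 20.9 FPKM. The 7 atrial markers (Sln, Myl7, Myl4, Nppa, Bmp10, Dkk3 and Stard10) summed to 234, 269, 192, 2196 and 842 FPKM in vehicle hearts 1 to 5. They summed to 473, 1136, 143, 297 and 185 FPKM in MEKi hearts 1 to 5. Vehicle heart 4 and MEKi heart 2 thus led both sums, but vehicle heart 5, with the third highest atrial sum, was nearly free of the adipocyte genes. Bmp10 was at 0 in 4 hearts, vehicle heart 5 among them, and Sln at 0 in 2. With the mean z-score of the tested members without Fabp4 and Car3, Bmp10, which was under the filter, had r = 0.82. The other atrial markers had r from 0.44 (Nppa) to 0.69 (Dkk3). Without vehicle heart 4 and MEKi heart 2, Bmp10 had r = 0.66 and the others from -0.25 (Nppa) to 0.17 (Dkk3), so those values rest on these hearts. Nppa alone made up 454 FPKM of the sum in MEKi heart 1. The part of atrial tissue in the result was not tested.

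The 4 red cell markers (Hba-a1, Hbb-bs, Hbb-bt and Alas2) summed to between 2813 and 25085 FPKM in the vehicle hearts and between 2860 and 7223 FPKM in the MEKi hearts. They were highest in vehicle heart 5 (25085 FPKM), which was nearly free of adipocyte genes, and in vehicle heart 4 (23269 FPKM), and MEKi heart 2 had 5042 FPKM. The 8 mesothelial markers, which mark the surface layer of the heart, summed to between 9.01 and 25.6 FPKM in the vehicle hearts and between 1.12 and 19.0 FPKM in the MEKi hearts, with the lowest sum in MEKi heart 3 and Upk1b and Muc16 at 0 there. Their part in the result was not tested. The 8 endothelial markers, which mark the cells that make Fabp4 in capillaries, summed to between 140 and 227 FPKM. Their sum was lowest in vehicle heart 3 and then MEKi heart 5, the 2 hearts lowest in Fabp4 in the reverse order. It was highest in vehicle heart 5, whereas Fabp4 was highest in vehicle heart 1. The part of endothelium in the level of Fabp4 was not tested. The 5 lung markers summed to at most 0.535 FPKM and the 6 liver markers to at most 2.88 FPKM in any heart.

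**Figure D5:**
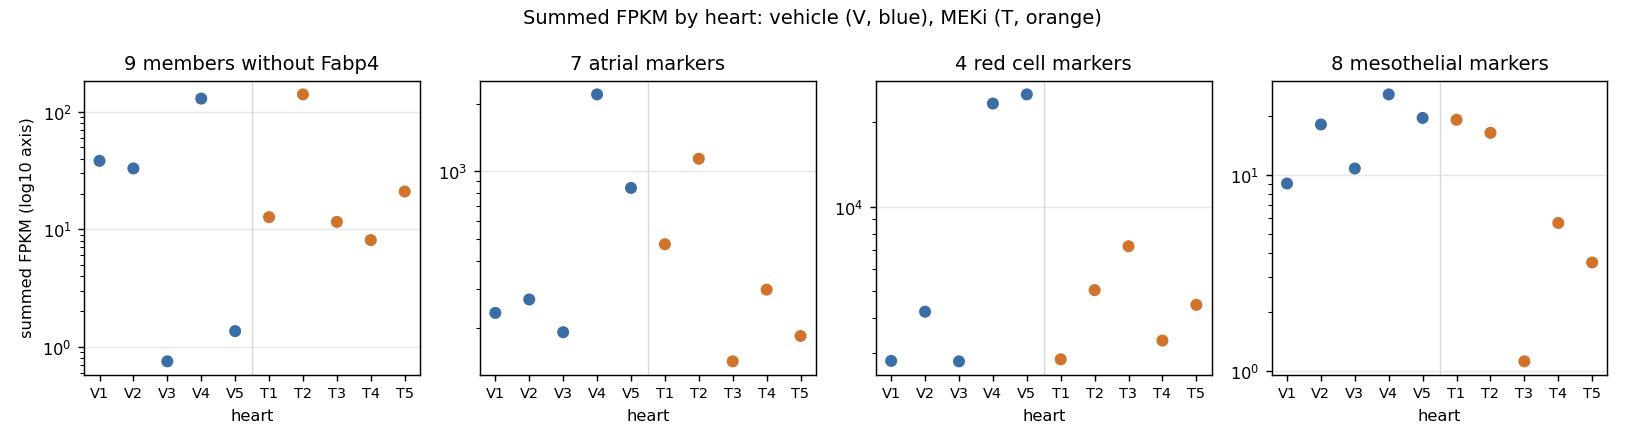
Summed FPKM (log10 axes) by heart for the 9 adipocyte genes other than Fabp4, 7 atrial, 4 red cell and 8 mesothelial markers, with vehicle hearts V in blue and MEKi hearts T in orange. V4 and T2 lead the adipocyte and atrial sums, V5 is high in atrial and red cell markers with an adipocyte sum of 1.36 FPKM, and T3 has the lowest mesothelial sum of 1.12 FPKM.

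The genes most like the members were sought among the 10705 genes that averaged 1 FPKM or more, by r with the mean z-score of the 7 members past the filter over the 10 hearts. Of the 10699 that are not members, 3 had r over 0.9 and 6 had r under -0.9. Those named are the extremes of a ranking of all these genes, which was not tested. The closest gene outside the members was Cyp2e1, a cytochrome P450 best known from liver, with r = 0.95 and rho = 0.90, or r = 0.91 without vehicle heart 4 and MEKi heart 2. It measured 3.80, 2.35, 0.0978, 10.5 and 0.0955 FPKM in vehicle hearts 1 to 5. Its levels in MEKi hearts 1 to 5 were 0.541, 6.86, 0.473, 0.544 and 2.12 FPKM. Like Cfd it was highest in vehicle heart 4 and MEKi heart 2 and lowest in vehicle hearts 3 and 5, over a 110-fold range.

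Next came Emc6, a subunit of the membrane protein insertion complex of the endoplasmic reticulum (r = 0.91), and Selenow, a small selenoprotein of muscle (r = 0.90), followed by Gm30085, Nop10, Slc25a1, Vamp5, 1810043G02Rik, Pdlim4, Tpgs1, Spcs1 and Endou with r from 0.87 to 0.89. Emc6 ranged 1.47-fold and Selenow 1.36-fold over the hearts, and 6 of the 12 spanned more than 2-fold. The opposite pattern was closest in Gm13803 (r = -0.94), Wac (r = -0.93), D6Wsu163e (r = -0.92) and Irs2 (r = -0.92), an adaptor of the insulin receptor, which measured 0.647 FPKM in vehicle heart 4 and 1.64 FPKM in vehicle heart 3. The median gene length was 1852 bases for the 12 genes with the highest r, 6142.5 bases for the 4 with the lowest, and 3856 bases for all genes compared. When Fabp4 and Car3 were left out of the score, 8 of the 12 closest genes were the same, and Cyp2e1 came first with r = 0.98.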

How the data were processed

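Per the submitters' processing notes, reads of the 10 hearts were handled with fastp, STAR 2.5 and HTSeq 0.6.1 on mm10. The authors deposited 1 table of FPKM with gene lengths and positions. In each heart, 100% of the products of FPKM and gene length came out as whole fragments (tolerance 0.001). Samples were grouped by the treatment in their labels. The members and lists were chosen with earlier results of these data known.

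Values were analysed as log2(FPKM + 0.1). Genes averaging 0.5 FPKM or more were fitted with limma 3.58.1 in R 4.3.3 (lmFit, eBayes with trend), two-sided, with Benjamini-Hochberg adjustment over 12602 genes and a threshold of 0.05, and the code was tested on simulated data. Members under the filter had exact permutation tests. Co-variation was computed in Python 3.11.15 with scipy 1.17.1. The genes named were the members, genes of the lists, the 12 genes with the highest and 4 with the lowest r, Xist and Y-linked genes. The labels call the hearts biological replicates, and same-numbered hearts are not stated to be paired. The study's methods state no test for these libraries. Alternatives varied the pseudocount, filter, scale, weights, model and hearts.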

Additional observations from a re-analysis of the deposited data

Results flagged for a closer look

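Values were marked where the highest or lowest heart of a group of 5 stood off from its nearest neighbour by a large share of the group's range (the 95% cutoff of Dixon's test). The members had been selected on their values in these same hearts, so the marks describe gaps and test nothing. Of 19 groups that could be examined, 9 were marked, and because the members vary together these are not independent. MEKi heart 2 stood above the other MEKi hearts in 7 members, with a gap of 0.805 of the range for Adipoq, 0.901 for Cfd, 0.965 for Retn, 0.831 for Plin1, 0.821 for Cidec, 0.916 for Car3 and 0.896 for Pck1. Vehicle heart 4 stood above the other vehicle hearts in Retn (0.836) and Lep (0.849), while Cfd and Adipoq were also high in vehicle hearts 1 and 2. Neither Fabp4 nor Ucp1 was marked in either group.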

How the results depend on the processing

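No member passed the test under any of the 22 other settings. In the fit reported above, 10 genes passed, among them Xist, Ddx3y, Eif2s3y, Uty and Gm29650. That count of genes was 2 with a mean of at least 5 FPKM, 18 with array weights, 4 with a replicate block, 5 without the 2 hearts highest in adipocyte genes and 6 without vehicle hearts 3 and 5, and from 5 to 13 when 1 heart was left out. Same-numbered hearts did not deviate together (r from -0.15 to -0.02 in 5 pairs), and the block changed no member's call. The median log2 fold change of the members ran from 0.01 to 1.53 with 1 heart left out and was -1.11 without vehicle hearts 3 and 5. The median r of 21 pairs, 0.80, was 0.97 within vehicle hearts, 0.94 on deviations from group means, 0.92 without Fabp4 and Car3 and 0.68 without vehicle heart 4 and MEKi heart 2, and from 0.74 to 0.85 with 1 heart left out. The difference in mean z-score, MEKi minus vehicle, ran from -0.36 to 0.38 with 1 heart left out and was -0.96 without vehicle hearts 3 and 5.

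Settings that left out a pair of hearts were chosen after seeing the data. Leaving out vehicle hearts 3 and 5, the lowest vehicle hearts in Cfd, Car3, Adipoq, Cidec, Retn and Pck1, lowers the values of these genes by construction. Signs turned under array weights for Cfd (-0.18), Car3 (-0.20), Adipoq (-0.088) and Cidec (-0.54), with a pseudocount of 1 for Cidec (-0.038) and Lep (-0.00086), and without vehicle hearts 3 and 5 for Cfd (-1.50), Car3 (-1.07), Adipoq (-1.11), Cidec (-1.12), Retn (-0.71) and Lep (-0.12). With 1 heart left out, Cidec ranged from -0.52 to 0.63, Lep from -0.27 to 0.39 and Plin1 from -0.57 to 0.36. The causes were not tested. The number of hearts, the low counts of Lep and Ucp1 and the low level of Plin1 limit what could be detected.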

Other observations

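Vehicle heart 4 ranked first or second among the hearts in 10 of the 10 members and MEKi heart 2 in 7. Acta1, the skeletal form of alpha-actin that heart muscle also makes, was highest in vehicle heart 5 (262 FPKM), MEKi heart 2 (247 FPKM) and vehicle heart 4 (162 FPKM), the same hearts that led the atrial markers, and lowest in MEKi heart 5 (14.9 FPKM).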
